A study of Mus musculus with 24 samples.

Results

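Cells given potassium bromate (KBrO3) alone and sampled 24 hr after the start of the exposure were compared with untreated cells of the same line. The members of this comparison are 6 arrays of the 24 in the series, 3 titled KBrO3 24 and 3 titled Control 4, and they were picked by those titles and not by any measured value. All arrays carried RNA of immortalized Ku70-/- mouse embryonic fibroblasts (MEFs), in which the gene for Ku70, Xrcc6, is knocked out, so that untreated and treated cells shared this deletion and no wild-type cells enter the comparison. The treated cells received 20 mM KBrO3 for 1 hr, were washed and were left in fresh medium for a further 23 hr, whereas the controls received neither KBrO3 nor bisphenol A (BPA). The study set out to compare cells given both agents with cells given each agent alone. The question taken here is which transcripts differ after an oxidative DNA-damaging exposure once the cells have had a day to repair. The controls are labeled 4 and not 24, so that time in culture and treatment cannot be told apart, and the cells are 1 line, which limits them as a model of fibroblasts in general.

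KBrO3 is an oxidant whose best known DNA lesion is 8-oxoguanine, which base excision repair removes. Ku70 pairs with Ku80 to hold broken DNA ends for non-homologous end joining. Oxidative and DNA damage are known to engage the transcription factors p53, which controls cell cycle inhibitors such as p21, NRF2, which controls glutathione and thioredoxin genes, and ATF4, which controls amino acid supply. Fibroblasts also secrete collagens and other matrix proteins, and cultured MEFs release chemokines and liver-type acute-phase proteins under the control of NF-kB and C/EBP factors.

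Signals are given on the log2 scale relative to the 75th percentile of each array's own spots, so that 0 marks that percentile. Between 62.9% and 65.1% of the spots were well above background on the control arrays and between 59.6% and 68.1% on the KBrO3 24 hr arrays. The median absolute difference between 2 arrays of a group, over the genes tested, ranged from 0.061 to 0.095 in the controls and from 0.069 to 0.118 in the KBrO3 24 hr cells. No slide carried arrays of both groups (2 controls lay on slide 1 and the other on slide 2, while 1 KBrO3 24 hr array lay on slide 3 and the other two on slide 4), so slide and treatment cannot be told apart. The probe for Xrcc6 (NCBI gene 14375) gave 0.02, 0.06 and 0.21 on the 3 control arrays and 0.34, 0.38 and 0.40 on the KBrO3 24 hr arrays, all well above background. Which part of the gene is missing is not given in the sources used here, so this probe (on mm7, chromosome 15, 82115620 to 82120093) does not check the deletion. All 14 fibroblast markers (among them Col1a1, Vim, Pdgfra, Thy1 and Twist1) were well above background on the 3 control arrays and 13 on all 3 treated arrays, Thy1 being so on 1. Markers that define leukocytes (Ptprc), endothelium (Pecam1 and Cdh5) and epithelium (Cdh1) were well above background on none of the 6 arrays. The study's methods describe the replicates of each condition as biological, all of the same cell line.

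Of 13196 protein-coding genes tested, 1154 (8.75%) rose and 1749 (13.3%) fell in KBrO3 24 hr cells. A gene counted as changed when limma's two-sided test gave its representative probe a p under 0.01 after Bonferroni adjustment together with at least a 1.5-fold difference, and all 15 arrays of the set entered the estimate of each probe's spread. The falls were larger than the rises, with a median of 2.31-fold among genes that fell and 1.86-fold among genes that rose. Fitted fold changes above 10 were found for 67 genes that fell and 11 that rose, but some of these rest on a group near background. Of all genes that rose, 24 were well above background on no control array, and of those that fell 70 on no treated array. For such genes the fold is only a lower bound. With 13196 genes, groups that do not overlap are common, and all 3 treated arrays lay above all 3 controls for 34.7% of genes and below them for 42.2%. Scaling the arrays by their medians moved the share of changed genes that were higher from 39.8% to 50.9% and the median log2 difference of all genes from −0.077 to 0.071, so that small negative log2 differences can take the other sign with the scaling. As these are bulk samples, fewer cells of a kind and less RNA per cell cannot be told apart.

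**Figure D1:**
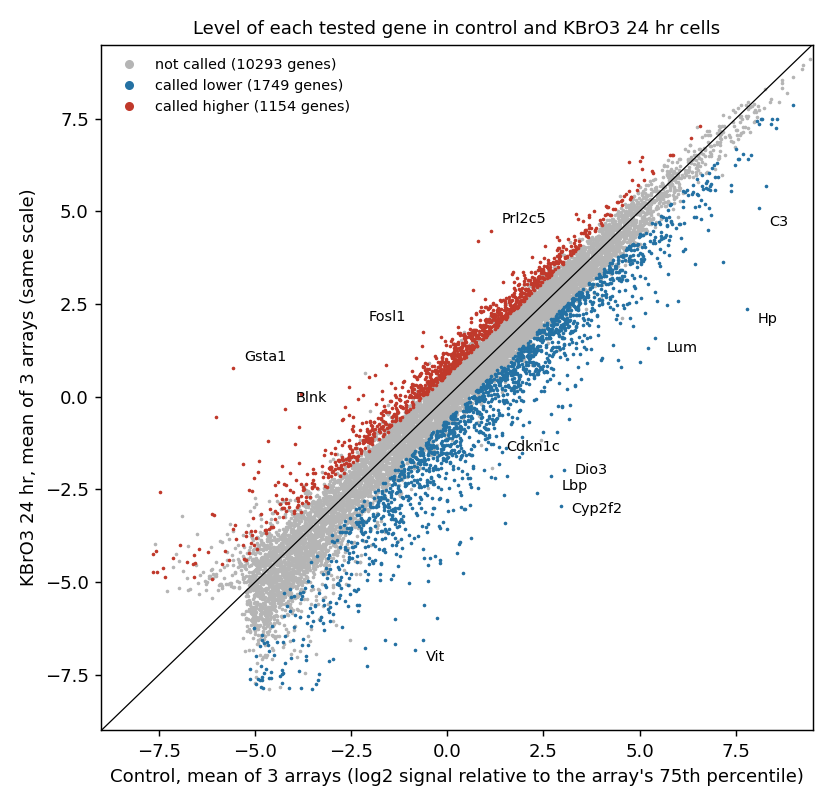
Mean log2 signal of each of the 13196 genes tested in control cells (x axis, 3 arrays) and KBrO3 24 hr cells (y axis, 3 arrays), each relative to the array's 75th percentile, with the diagonal marking equal levels. Genes that rose are red (1154), genes that fell are blue (1749), and the falls reach farther from the diagonal at high control levels, where Hp, C3 and Lum lie.

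Many genes of mitosis rose. Of 35 tested genes that act in mitosis, 18 rose and none fell, where 8.75% of all genes rose (limma), with a median log2 difference of 0.63 against −0.077 over all genes tested, and all but Ccnb2 (−0.006) had a positive difference. Top2a, which encodes the topoisomerase that untangles chromosomes, gave 1.31, 1.45 and 1.61 in controls and 3.08, 3.09 and 3.15 in KBrO3 24 hr cells. Its groups lay well apart, and Top2a rose 3.13-fold (limma, adjusted p = 4.2e-10, SE 0.07 on the log2 scale). Espl1, the protease separase that releases sister chromatids, rose from 0.71, 0.63 and 0.89 to 2.23, 2.22 and 2.33, a 2.86-fold change (adjusted p = 1.45e-09 in limma). Cyclin B1 (Ccnb1), which drives entry into mitosis, went from 1.36, 1.32 and 1.39 to 2.29, 2.35 and 2.38, and rose 1.98-fold. Its partner kinase gene Cdk1 differed by 0.98 without passing the test. The transcription factor Foxm1, a regulator of such genes, rose 1.97-fold and the spindle kinase gene Aurka 1.73-fold (limma, adjusted p = 9.54e-10 and 2.24e-08). Cyclin A2 (Ccna2) rose 1.74-fold, whereas log2 differences of 0.24 for Birc5, which encodes survivin, and 0.54 for the kinase gene Plk1 did not reach the threshold.

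In the direct test of KBrO3 24 hr against KBrO3 4 hr cells, in which the controls enter only the filter and the estimate of spread, 31 of the 35 were higher at 24 hr, where 15.1% of all genes were (limma). Ccnb1 gave 0.55, 0.61 and 0.56 on the 4 hr arrays, below every control array, and the 24 hr level exceeded the 4 hr level by 1.76 (SE 0.04, adjusted p = 2.56e-12 in limma). Against the shared controls, the median of the list was −0.79 at 4 hr and 0.63 at 24 hr, and 17 members were lower than control at 4 hr, where 18.4% of all genes were, and none higher.

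Promoters of the mitotic genes are shown because many share the motifs below. The list was written from general knowledge with earlier results of these data known, so the match is no independent support. The cell cycle genes homology region TTTGAA together with the CCAAT box CCAAT, both searched on either strand of windows from 250 bases before to 50 after a start site (RefSeq, GRCm38.p6), occurred in 22 of 32 windows of 30 matched mitotic genes (68.8%) and in 661 of 13472 windows (4.91%) of 10566 tested genes with a window. Among all genes that rose, 7.14% of windows held the pair, and among genes that fell 3.70%. The 250 bases before the start of Top2a (chr11:99024190-99024439, minus strand) and Espl1 (chr15:102296043-102296292, plus strand) follow, 5′ to 3′, with both motifs in capitals. On the minus strand the motifs read TTCAAA and ATTGG, the motifs do not overlap in either promoter, and the match of letters is a description and not a binding site.
Top2a: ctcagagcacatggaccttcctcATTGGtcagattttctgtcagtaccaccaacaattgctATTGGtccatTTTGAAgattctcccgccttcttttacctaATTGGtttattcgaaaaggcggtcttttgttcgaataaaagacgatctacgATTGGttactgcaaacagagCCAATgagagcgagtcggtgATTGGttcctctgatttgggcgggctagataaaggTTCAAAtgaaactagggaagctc
Espl1: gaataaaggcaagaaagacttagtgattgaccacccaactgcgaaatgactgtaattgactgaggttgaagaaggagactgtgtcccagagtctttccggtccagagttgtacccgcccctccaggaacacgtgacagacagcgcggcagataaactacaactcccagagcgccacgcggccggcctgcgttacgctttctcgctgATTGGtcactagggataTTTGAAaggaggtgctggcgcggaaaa

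DNA replication genes rose in part, 10 of 40 (25%, where 8.75% of all genes rose) with none falling, at a median of 0.36. When KBrO3 24 hr replicate 1 was left out, 6 of 40 rose. Orc1, a subunit of the origin recognition complex, gave −2.04, −2.04 and −1.98 in controls and −0.95, −0.87 and −0.92 at 24 hr. Mcm10, an initiation factor of the replication fork, gave 2.85, 2.88 and 2.88 in controls and 3.97, 4.02 and 4.03 at 24 hr. Neither gene's groups overlapped, and they rose 2.16-fold and 2.2-fold (limma, adjusted p = 9.54e-10 and 3.33e-10). The helicase cofactor gene Cdc45 rose 2.04-fold and the helicase subunit gene Mcm5 1.83-fold. Cdc6, a loader of the helicase, rose 1.87-fold on its representative probe and differed by −0.18 on the other. Pcna, the sliding clamp, differed by 0.16 and Ccne1, cyclin E1, by 0.58, both short of the threshold. Of the 40, 9 were lower and 5 higher at 24 hr than at 4 hr, near the 17.3% and 15.1% of all genes. At 4 hr Orc1 had given 0.56, 0.68 and 0.68, and its 24 hr minus 4 hr difference was −1.55 (limma, adjusted p = 2.49e-11).
E2F sites (TTTGGCGC, TTTCCCGC or TTTCGCGC on either strand) were found in 13 of 34 replication promoters (38.2%) and in 425 of the 13472 windows of all genes (3.15%). Such a site was in 3.7% of windows of all genes that rose and in 2.05% of those of genes that fell. The promoters of Orc1 (chr4:108579204-108579453, plus strand) and Cdc6 (chr11:98907901-98908150, plus strand) are printed as members that rose and hold such a site, in capitals.
Orc1: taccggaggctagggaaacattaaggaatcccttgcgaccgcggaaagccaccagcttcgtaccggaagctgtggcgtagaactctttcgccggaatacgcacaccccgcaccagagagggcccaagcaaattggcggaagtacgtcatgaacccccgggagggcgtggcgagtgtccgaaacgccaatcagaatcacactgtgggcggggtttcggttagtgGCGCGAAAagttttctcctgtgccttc
Cdc6: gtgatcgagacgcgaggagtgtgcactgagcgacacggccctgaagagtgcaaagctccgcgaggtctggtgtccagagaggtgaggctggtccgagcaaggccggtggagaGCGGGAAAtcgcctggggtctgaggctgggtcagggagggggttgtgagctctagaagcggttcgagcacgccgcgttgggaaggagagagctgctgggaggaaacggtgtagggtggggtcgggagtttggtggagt

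Of 17 regulators of the first gap phase of the cell cycle, 3 were higher (17.6%) and 5 lower (29.4%), where 8.75% and 13.3% of all genes were. The other 9 passed neither way. Ccnd1, cyclin D1, gave 0.10, 0.12 and 0.20 in controls, −0.58, −0.54 and −0.56 at 4 hr and 1.22, 1.15 and 1.18 at 24 hr, so that the 4 hr arrays lay below and the 24 hr arrays above all controls. Its difference from control was 1.04 at 24 hr (limma, adjusted p = 5.05e-09) and −0.70 at 4 hr. The inhibitor Cdkn1c (p57) went the other way, from 1.15, 1.29 and 1.35 to −1.11, −1.11 and −0.97, a 5.01-fold fall (adjusted p = 1.01e-11, limma). Cdkn2b (p15) and Cdkn2c (p18), which also inhibit cyclin-dependent kinases, fell 2.24-fold and 1.72-fold. Cdkn1b (p27) fell 1.97-fold on its brightest probe, while its other probes differed by −0.19 and −0.18. Myc differed by 0.38, which was not past the fold limit.

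Of 28 genes of the p53 pathway, 8 rose (28.6%, where 8.75% of all genes rose) and 1 fell, at a median of 0.32. Cdkn1a, which encodes the inhibitor p21, gave 0.70, 0.61 and 0.72 in controls and 1.72, 1.80 and 1.89 at 24 hr and rose 2.18-fold (limma, adjusted p = 3.37e-08). At 4 hr it had stood at 3.76, 3.78 and 3.74, higher than at 24 hr on every array. Mdm2, the ubiquitin ligase that restrains p53, rose 1.96-fold and Ccng1, cyclin G1, 2.04-fold, a call that was lost when any 1 of the 6 arrays was left out (log2 differences 0.99 to 1.06). The stress cytokine Gdf15 gave −2.63, −2.71 and −2.78 in controls and −0.59, −0.65 and −0.58 at 24 hr, the largest rise of the list at 4.29-fold (adjusted p = 1.05e-11 in limma). Perp, a membrane protein of this pathway, gave −0.48, −0.48 and −0.80 in controls and 0.85, 0.82 and 1.04 at 24 hr. Perp and Ccng1 had not risen at 4 hr (log2 differences −0.42 and 0.06), and both were higher at 24 hr than at 4 hr by 1.91 and 0.97 (limma, adjusted p = 6.91e-10 and 7.57e-07). The death receptor gene Fas fell 3.07-fold, and the proapoptotic genes Bax and Pmaip1 (Noxa) differed by 0.42 and 0.55 without passing the threshold.

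Among repair genes, homologous recombination had 7 of 21 members higher (33.3%) and none lower, at a median of 0.39, which was 0.61 without control replicate 1. The shares in the other repair lists, with 1 to 3 members higher each, lay near the 8.75% of all genes that rose. Brca1 gave 0.47, 0.44 and 0.50 in controls and 1.60, 1.70 and 1.65 at 24 hr, a 2.26-fold rise (limma, adjusted p = 8.47e-10). Its groups did not overlap, and at 4 hr Brca1 had given 0.63, 0.63 and 0.64. Of 25 base excision repair genes, which act on oxidized bases, 3 rose and 1 fell, and after normexp background correction 1 rose and 0 fell. Fen1, the flap nuclease, rose 2.47-fold, Parp1, which senses strand breaks, 1.85-fold and Apex1, which cuts abasic sites, 1.56-fold, and the glycosylase gene Mbd4 fell 1.69-fold (limma, adjusted p = 1.22e-10, 1.86e-08, 1.32e-08 and 7.23e-08). The glycosylase Ogg1, which removes 8-oxoguanine, gave 1.22, 1.17 and 1.02 in controls and 1.10, 1.08 and 1.20 at 24 hr, and the groups overlapped (log2 difference −0.01, limma adjusted p = 0.894). It was lower at 4 hr, at 0.40, 0.44 and 0.36, and the 24 hr level exceeded that by 0.73 (limma, adjusted p = 1.08e-06). In nucleotide excision repair, 3 of 22 rose, among them Ercc1 (1.98-fold) and the helicase gene Ercc3 (2.01-fold). End joining itself had 1 of 10 genes higher, the ligase Lig4 (1.86-fold), and 1 lower, Paxx, a partner of Ku (1.8-fold), while the gene for Ku80, Xrcc5, differed by 0.39. Left out 1 at a time, 5 of the 6 arrays cost Lig4 its call (log2 differences 0.86 to 0.96) and all 6 cost Paxx its call (−0.80 to −0.89). Of mismatch repair, 1 of 7 genes rose, Msh3 (1.85-fold), a call lost with slide as a random block, and of the checkpoint and Fanconi genes 3 of 23 rose, Fanca, Fancb and Chek2 (1.73-fold, 1.58-fold and 1.55-fold). Fancg was 2.24-fold lower on its brightest probe, but its other probes differed by 0.15 and 0.20. The calls of Fancg (−1.11 to −1.24) and Chek2 (0.60 to 0.67) were lost when single arrays were left out, in all 6 and in 4 of 6 cases, and Chek2 differed by −0.036 after normexp background correction.

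**Figure D2:**
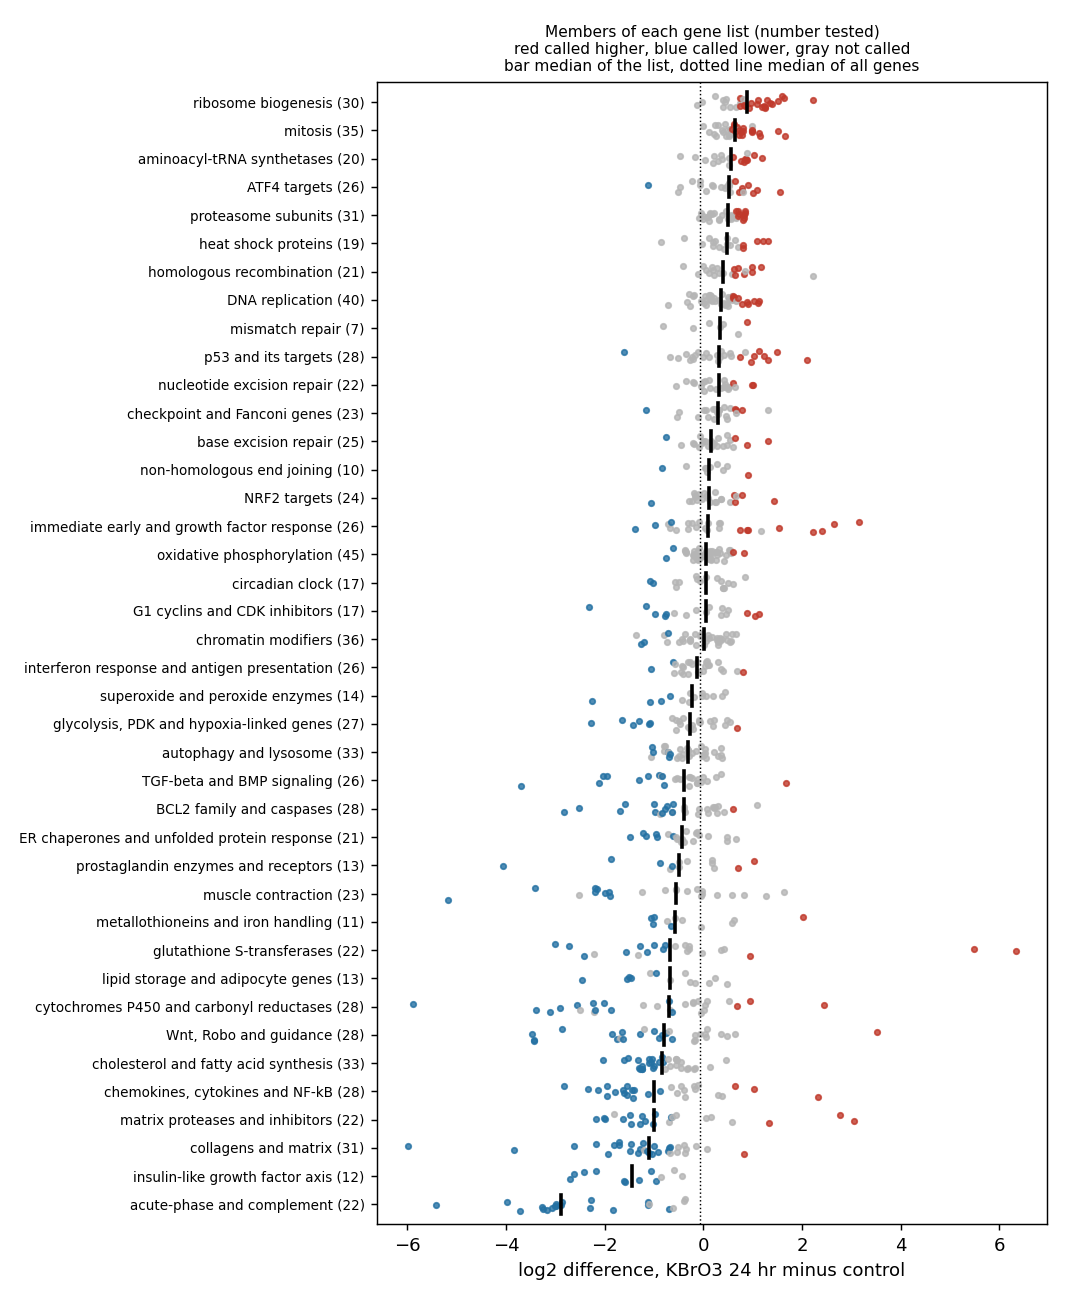
Log2 difference (KBrO3 24 hr minus control, x axis) of each tested member of 40 gene lists, with the number tested in parentheses; red points rose, blue points fell, gray points passed neither threshold, the bar is the list's median and the dotted line the median of all genes, −0.077. Ribosome biogenesis (0.88) and mitosis (0.63) have the highest medians and the acute-phase and complement genes (−2.88) the lowest.

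Most antioxidant genes lay near control. Of 24 NRF2 targets, 4 were higher (16.7%, where 8.75% of all genes were) and 1 was lower than control at 24 hr. Their median was 0.11 (0.067 without control replicate 3), whereas 18 had been higher and none lower at 4 hr, at a median of 1.53 against the same controls (15.6% of all genes were higher at 4 hr). In the direct test, 17 of the 24 were lower at 24 hr than at 4 hr, where 17.3% of all genes were (limma). Hmox1, heme oxygenase, gave 2.94, 2.90 and 3.06 in controls, 9.19, 9.13 and 9.25 at 4 hr and 2.80, 2.83 and 2.89 at 24 hr, so that the 24 hr minus 4 hr difference was −6.35 (adjusted p = 2.34e-15 in limma) and that from control −0.13 (adjusted p = 0.091), which took the other sign with median scaling (0.022). Gclm, the modifier subunit of glutamate-cysteine ligase, gave −1.31, −1.50 and −1.43 in controls and −1.16, −1.16 and −1.16 at 24 hr, a difference of 0.26 that did not pass. The catalytic subunit gene Gclc, by contrast, stayed above control at 1.71, 1.72 and 1.71 against 0.16, 0.30 and 0.35, a 2.71-fold rise (limma, adjusted p = 1.75e-10), down from 5.59, 5.58 and 5.56 at 4 hr. Slc7a11, the cystine importer, rose 1.72-fold, a call that was lost without any of 5 of the 6 arrays (log2 differences 0.72 to 0.85) and turned to −0.34 after normexp background correction. Txnrd1, thioredoxin reductase, and Srxn1, sulfiredoxin, differed by 0.35 and 0.65, short of the threshold. Fth1, the heavy chain of ferritin, which stores iron, fell 2.09-fold, from 8.42, 8.35 and 8.52 to 7.34, 7.37 and 7.38 (adjusted p = 3.02e-08, limma), and Tfrc, the transferrin receptor that takes iron up, rose 4.03-fold, from −0.64, −0.68 and −0.62 to 1.34, 1.40 and 1.35 (adjusted p = 2.11e-11, limma). Of the superoxide and peroxide enzymes, none of 14 rose and 4 fell (28.6%, where 13.3% of all genes fell), among them the mitochondrial dismutase Sod2 (2.11-fold).

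Glutathione S-transferases, which attach glutathione to reactive compounds, fell more often than they rose. Of 22 tested, 3 rose (13.6%) and 9 fell (40.9%), where 8.75% and 13.3% of all genes did, and the list had a median of −0.68. Gsta1 gave −5.42, −5.61 and −5.70 in controls, only 1 of them well above background, and 0.75, 0.77 and 0.77 at 24 hr. This is at least a 70.2-fold rise when each dim control array is set no lower than its dimmest signal above background. Gsta1 passed the filter on dim probes through the treated arrays only. Gsta2, likewise well above background on 1 control array, was at least 26.2-fold higher, and the calls of both genes were lost after normexp background correction. The sequences of Gsta1 and Gsta2 are alike, so their probes may share signal. Mgst2, a microsomal transferase, gave 1.84, 2.00 and 1.97 in controls and −1.09, −1.06 and −1.08 at 24 hr and fell 8.06-fold, and Gstm1 fell 2.97-fold (adjusted p = 2e-13 and 1.27e-07 in limma).

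Genes that assemble ribosomes and charge transfer RNA rose in larger shares than all genes. The same did not hold for the cytosolic ribosomal proteins themselves, of which none of 76 rose and 1 fell (a family picked after its values were seen). Ribosome biogenesis, the assembly of ribosomal RNA and protein in the nucleolus, had 19 of 30 genes higher (63.3%, where 8.75% of all genes rose) and none lower. This was the largest share of rises among the 40 lists, at a median of 0.88. Ncl, which encodes nucleolin, gave 5.06, 5.03 and 5.13 in controls and 6.46, 6.46 and 6.49 at 24 hr and rose 2.63-fold (limma, adjusted p = 1.2e-10). Rrp12, an export factor of ribosomal subunits, gave −2.16, −2.28 and −2.12 in controls and 0.07, −0.02 and 0.08 at 24 hr, a 4.69-fold rise (adjusted p = 3.32e-10 in limma). Mybbp1a and the methyltransferase Nop2 rose 3.12-fold and 2.34-fold, and Polr1b, the second largest subunit of RNA polymerase I, 1.96-fold. The list had stood higher at 4 hr, at a median of 2.05 with 29 of 30 above the same controls, where 15.6% of all genes were. At 24 hr 20 of the 30 were lower than at 4 hr, where 17.3% of all genes were (limma). Of 20 aminoacyl-tRNA synthetases, which charge transfer RNA with amino acids, 9 rose and none fell, for example Farsb, for phenylalanine, from −0.75, −0.79 and −0.72 to 0.40, 0.24 and 0.19 (2.05-fold), and Gars, for glycine, 1.83-fold. The count of synthetases was 5 without control replicate 1 and without KBrO3 24 hr replicate 2 or 3, and it was 0 after normexp background correction. Of 31 proteasome subunits 9 rose and none fell, Psmd1 by 1.81-fold and Psmc4 by 1.76-fold, and after normexp none did. Of 19 heat shock genes 5 rose and none fell, the mitochondrial chaperonin gene Hspd1 2.12-fold and the inducible Hspa1a, whose probe may also detect its near-identical neighbor Hspa1b, 2.49-fold (limma, adjusted p = 1.71e-10 and 6.4e-11).

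Of 26 targets of ATF4, 8 rose (30.8%) and 1 fell (3.85%), where 8.75% and 13.3% of all genes did. The median was 0.51, and 5 rose without KBrO3 24 hr replicate 3. Psat1, an enzyme of serine synthesis, gave 2.21, 2.19 and 2.23 in controls and 3.87, 3.76 and 3.67 at 24 hr. Shmt2, which passes a carbon from serine to folate in mitochondria, gave 2.61, 2.58 and 2.66 in controls and 3.65, 3.68 and 3.76 at 24 hr. Mthfd2, which acts on the product, gave 0.27, 0.21 and 0.24 and 1.40, 1.18 and 1.15. All 3 had groups that did not overlap, and they rose 2.95-fold, 2.11-fold and 2.01-fold (limma, adjusted p = 2.57e-10, 6.53e-08 and 1.41e-07). The stress factor Atf3 rose 1.72-fold, from −0.45, −0.44 and −0.34 to 0.29, 0.40 and 0.43, after 5.47, 5.50 and 5.47 at 4 hr, and the pseudokinase gene Trib3 rose 1.64-fold. The gene that fell was Cebpb. Atf4 itself, Ddit3 (CHOP) and asparagine synthetase (Asns) differed by 0.55, 0.54 and 0.52, all below the fold limit. The ATF4 composite element TGATGNAA occurred in 8 of 26 promoters of the list (30.8%) and in 322 of 13472 windows of all genes (2.39%). It was in 2.73% of windows of all genes that rose and in 2.9% of those of genes that fell, both near the share over all genes. The list was chosen for ATF4 targets, so its share is no independent support. In the 250 bases before the start of Slc7a11 (chr3:50443614-50443863, minus strand) and Atf3 (chr1:191183334-191183583, minus strand), printed as members that rose and hold the element, it is in capitals.
Slc7a11: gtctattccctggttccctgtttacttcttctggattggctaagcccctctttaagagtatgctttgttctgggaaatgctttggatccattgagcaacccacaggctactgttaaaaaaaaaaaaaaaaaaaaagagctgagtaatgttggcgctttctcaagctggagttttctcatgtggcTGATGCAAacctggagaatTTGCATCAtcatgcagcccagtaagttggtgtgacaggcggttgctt
Atf3: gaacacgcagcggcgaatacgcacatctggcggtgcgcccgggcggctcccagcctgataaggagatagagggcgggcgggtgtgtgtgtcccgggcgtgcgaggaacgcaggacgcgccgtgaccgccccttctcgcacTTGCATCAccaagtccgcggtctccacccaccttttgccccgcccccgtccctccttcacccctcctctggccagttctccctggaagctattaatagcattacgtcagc

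The chaperones of the endoplasmic reticulum were not among the rises. None of 21 rose and 6 fell (28.6%, where 13.3% of all genes fell), at a median of −0.43. However, 2 fell with median scaling, 1 after normexp background correction and none in the fit on the 6 arrays alone. Xbp1, a transcription factor of the unfolded protein response, gave 0.10, 0.11 and 0.16 in controls and −1.20, −1.05 and −1.09 at 24 hr and fell 2.35-fold, and Pdia4, a disulfide isomerase, fell 2.82-fold (limma, adjusted p = 3.55e-10 and 4.54e-09). The chaperone genes Hsp90b1 and Sdf2l1 fell 2.24-fold and 1.95-fold. Hspa5 (BiP), the main chaperone, gave 5.89, 5.87 and 5.76 in controls and 5.78, 5.76 and 5.69 at 24 hr, with overlapping groups, after 7.76, 7.69 and 7.78 at 4 hr.

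Acute-phase and complement genes had the lowest median of the 40 lists. Of 22 tested, 18 fell and none rose (13.3% of all genes fell), at a median log2 difference of −2.88, and all 22 differences were negative. Haptoglobin (Hp, NCBI gene 15439, probe on mm7 chromosome 8, 108175404 to 108175463), which binds free hemoglobin, fell 42.5-fold. Complement component C3 gave 8.10, 8.05 and 8.14 in controls and 5.02, 5.07 and 5.18 at 24 hr, an 8.03-fold fall (limma, adjusted p = 6.08e-12), and its other probe differed by −2.54. Lcn2, which binds bacterial iron carriers, went from 2.91, 2.95 and 3.09 to −0.23, −0.24 and −0.32, a 9.5-fold fall (adjusted p = 1.02e-12 in limma). Factor B (Cfb), C4b and the C1 inhibitor gene Serping1 fell 7.95-fold, 7.88-fold and 8.4-fold. Lbp, which binds bacterial lipopolysaccharide and was in no list, gave 2.64, 2.61 and 2.84 in controls and −2.17, −2.13 and −2.08 at 24 hr, a 28.4-fold fall. The acute-phase glycoprotein gene Lrg1, also in no list, gave 1.52, 1.52 and 1.45 in controls and −3.23, −3.47 and −3.52 at 24 hr, a 29.9-fold fall (limma, adjusted p = 1.24e-13 and 9.88e-14). The factors Cebpb and Cebpd, which drive such genes in liver, fell 2.18-fold and 2.18-fold, and the related Cebpa differed by −0.37.

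At 4 hr, 1 gene of this list was lower than the same controls and 1 higher, at a median of −0.16. At 24 hr 17 of 22 were lower than at 4 hr, where 17.3% of all genes were (limma). C3 gave 8.07, 8.03 and 8.05 at 4 hr, overlapping the controls, and Lbp gave 2.89, 2.90 and 2.85, just above them. Their 24 hr minus 4 hr differences were −2.96 and −5.01 (adjusted p = 3.87e-12 and 5.45e-14 in limma).

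Chemokines and cytokines fell in the main. Of 28 genes, 15 fell (53.6%) and 3 rose (10.7%) at 24 hr, where 13.3% and 8.75% of all genes did, at a median of −1.01. Cxcl1, which attracts neutrophils, gave 4.32, 4.27 and 4.11 in controls, 6.49, 6.46 and 6.46 at 4 hr and 2.82, 2.68 and 2.54 at 24 hr. Il6 gave 0.40, 0.45 and 0.33, 2.29, 2.31 and 2.29 and −1.62, −1.54 and −1.52 in the same order. Both genes were highest at 4 hr and lowest at 24 hr with no overlap between groups, and at 24 hr they were 2.94-fold and 3.88-fold below control (limma, adjusted p = 5.54e-09 and 1.91e-11). Ccl2, which attracts monocytes, fell 2.65-fold, Ccl7 2.69-fold, Il33 3.08-fold and the growth factor gene Csf2, which was not well above background on any treated array, at least 2.47-fold. Ccl11, which attracts eosinophils, was likewise not well above background on any treated array and at least 1.69-fold lower. Cxcl12 and the adhesion molecule Vcam1 fell 3.47-fold and 3.89-fold and had been lower than control at 4 hr too, with log2 differences of −1.57 and −1.51. The 3 that rose were Il18r1, a receptor subunit not well above background in controls (at least 1.99-fold), Ptgs2, the inducible cyclooxygenase (2.05-fold), and Il1rl1, the IL-33 receptor (1.55-fold). Il18r1 differed by −1.09 after normexp background correction, and the call of Il1rl1 was lost when any 1 of the 6 arrays was left out (0.60 to 0.66). Cxcl14, in no list, fell from 2.26, 2.41 and 2.31 to −2.57, −2.74 and −2.52 (30.6-fold; limma, adjusted p = 2.86e-12).

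**Figure D3:**
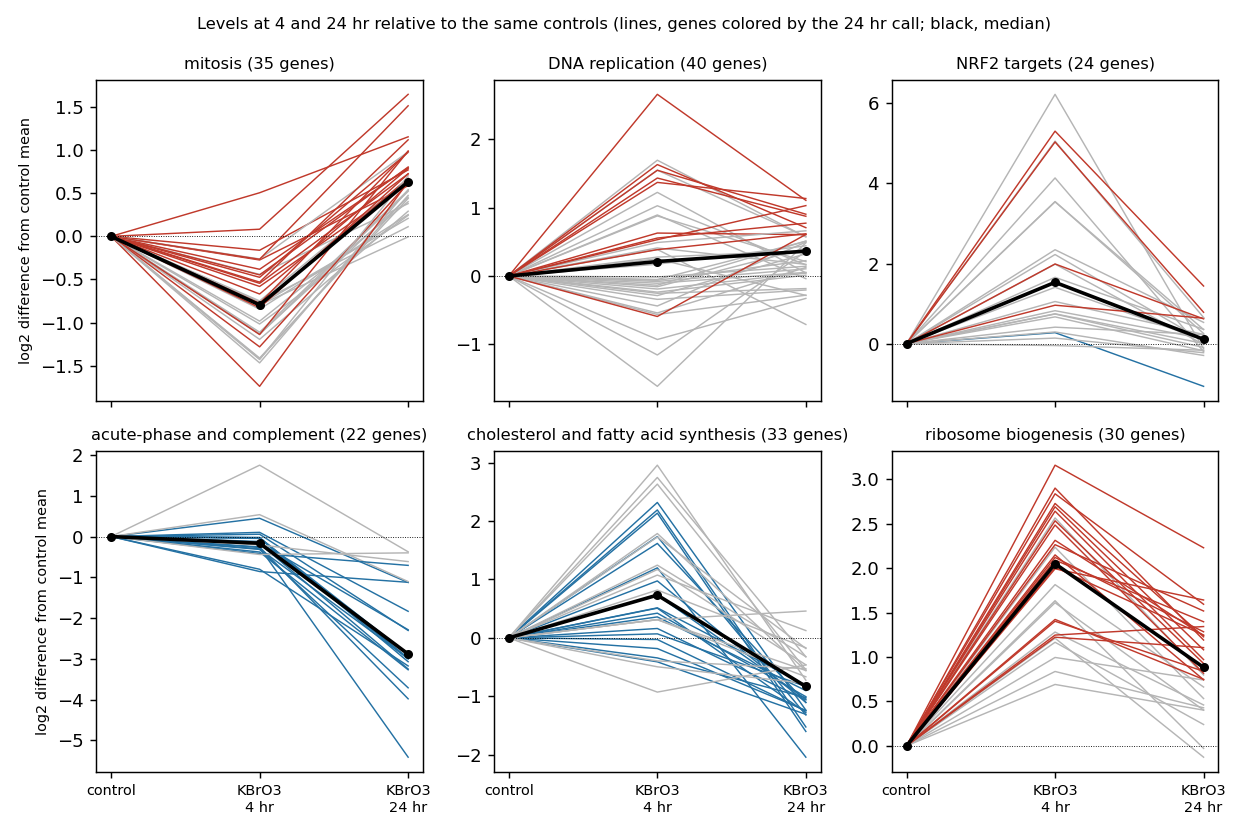
Difference of each gene's mean from the control mean (y axis, log2) in control, KBrO3 4 hr and KBrO3 24 hr cells (3 arrays each), for 6 gene lists; thin lines are genes, red if they rose and blue if they fell at 24 hr, and the black line is the median. Mitotic genes dip at 4 hr and exceed control at 24 hr (medians −0.79 and 0.63), NRF2 targets peak at 4 hr (1.53 and 0.11), acute-phase genes lie near control at 4 hr and below it at 24 hr (−0.16 and −2.88), and genes of cholesterol and fatty acid synthesis go from 0.73 to −0.83.

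Most genes of the extracellular matrix fell. Of 31 collagen and matrix genes, 21 fell (67.7%, where 13.3% of all genes fell) and 1 rose, at a median of −1.10. Dcn, the proteoglycan decorin, gave 8.22, 8.30 and 8.36 in controls and 5.69, 5.66 and 5.68 at 24 hr and fell 6.13-fold (limma, adjusted p = 2.09e-13). The related Lum, lumican, gave 5.45, 5.43 and 5.36 in controls and 1.63, 1.56 and 1.56 at 24 hr, a 14.2-fold fall (adjusted p = 6.73e-15 in limma). The fibrillar collagens Col1a1, Col1a2 and Col3a1 fell 2.21-fold, 2.45-fold and 3.5-fold. Fibronectin (Fn1) differed by −0.38 and did not pass the fold limit, and Thbs2, a thrombospondin, rose 1.76-fold. Of the 14 fibroblast markers, 9 fell and none rose, and the summed level of that list was 10.89 to 10.98 (log2) on the control arrays and 9.54 to 9.71 on the KBrO3 24 hr arrays. Of the other marker lists, the leukocyte markers summed to 1.75 to 1.84 in controls and 1.56 to 1.64 at 24 hr, with 5 of 13 markers not well above background in any control. The endothelial markers summed to 1.03 to 1.11 and 0.63 to 0.78 (6 of 9 not well above background), sums that Erg dominated, while Kdr was well above background on no control array and on all 3 treated arrays. The epithelial markers summed to 0.36 to 0.57 and 0.098 to 0.24 (3 of 11) and the neural to 0.70 to 0.81 and 0.45 to 0.70 (5 of 11). The part of a change in cell makeup in these falls was not tested.

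Matrix proteases and their inhibitors were mostly lower, 12 of 22 (54.5%) with 3 higher (13.6%), at a median of −1.01. Over all genes 13.3% fell and 8.75% rose. The gelatinase Mmp2 gave 3.58, 3.53 and 3.77 in controls and 2.00, 1.97 and 2.00 at 24 hr and fell 3.11-fold (limma, adjusted p = 2.37e-10). Adamts2, which trims procollagen, fell 4.53-fold and the stromelysin gene Mmp3 2.45-fold. Another stromelysin gene, Mmp10, rose from −3.91, −3.83 and −3.83 to −0.71, −0.81 and −0.90, an 8.29-fold rise (adjusted p = 4.14e-12, limma). Mmp15, not well above background in controls, was at least 1.78-fold higher, but differed by −1.25 after normexp background correction.

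Growth factor signaling genes divided by family. None of 12 genes of the insulin-like growth factor axis rose and 9 fell (75%, where 13.3% of all genes fell), at a median of −1.45. Igfbp3, a binding protein, gave 1.35, 1.29 and 1.39 in controls and −1.39, −1.29 and −1.40 at 24 hr (6.54-fold lower; limma, adjusted p = 7.13e-10), and the ligands Igf1 and Igf2 and the receptor Igf1r fell 3.07-fold, 3.02-fold and 2.46-fold. Of 26 TGF-beta and BMP genes, 9 fell (34.6%) and 1 rose (3.85%, where 8.75% of all genes rose). The riser was the activin subunit gene Inhba, from 1.58, 1.71 and 1.82 to 3.39, 3.35 and 3.40 (3.19-fold, adjusted p = 9.86e-11 in limma). The other activin subunit gene, Inhbb, gave 1.57, 1.54 and 1.54 in controls and −2.09, −2.26 and −2.09 at 24 hr, a 13-fold fall (limma, adjusted p = 4.74e-12). Tgfb2 and the TGF-beta-induced Tgfbi fell 4.12-fold and 4.33-fold. Of 28 Wnt and guidance genes, 14 fell (50%) and 1 rose (3.57%), the guidance receptor gene Robo3, whose call was lost after normexp background correction. The Wnt antagonist genes Sfrp1 and Sfrp2 fell 10.9-fold and 7.29-fold, and the Wnt effector gene Lef1, not well above background on any treated array, at least 7.16-fold. Of 5 tested ligands of the epidermal growth factor receptor, counted after their values were seen, 3 rose, while Egf and Epgn differed by −0.25 and 0.17. Areg, amphiregulin, gave −4.82, −4.63 and −5.22 in controls, 2 of them well above background, and −1.73, −1.82 and −1.67 at 24 hr. Hbegf gave 0.67, 0.69 and 0.64 in controls and 2.85, 2.88 and 2.95 at 24 hr, and Ereg, epiregulin, gave −2.42, −2.51 and −2.41 and −1.09, −0.84 and −0.83. Areg, which passed the filter on dim probes through the treated arrays only, was at least 8.89-fold higher. The groups did not overlap for Hbegf and Ereg, which rose 4.68-fold and 2.89-fold (limma, adjusted p = 3.9e-11 and 2.78e-09), though the other probe of Ereg differed by 0.09.

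Areg, Hbegf and Ereg belong to a list of 26 immediate early and growth factor response genes. Of these, 8 rose (30.8%) and 3 fell (11.5%) at 24 hr, where 8.75% and 13.3% of all genes did, at a median of 0.086. The falls were reduced to 1 when control replicate 1 or 3 or KBrO3 24 hr replicate 2 or 3 was left out. At 4 hr, 24 of the 26 had been above the same controls, where 15.6% of all genes were. Also 24 were lower at 24 hr than at 4 hr, where 17.3% of all genes were (limma). Fosl1, a partner of Jun, gave −0.65, −0.75 and −0.51 in controls and 1.80, 1.74 and 1.73 at 24 hr and rose 5.26-fold (adjusted p = 7.86e-12 in limma), and the transcription factor gene Klf4 rose 1.84-fold. Fos and Jun themselves differed by −0.31 and 0.32 and Egr1 by 0.04, and the related Egr2 fell 1.99-fold.

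Contractile genes fell in 8 of 23 cases (34.8%, where 13.3% of all genes fell) and rose in none. Acta2, smooth muscle actin, gave 4.60, 4.55 and 4.65 in controls and 2.34, 2.41 and 2.47 at 24 hr, a 4.58-fold fall (limma, adjusted p = 9.86e-12), and Tagln (transgelin) and Cnn1 (calponin) fell 4-fold and 4.48-fold. Cnn1 had been 0.71 above control at 4 hr. Myh2, a myosin of fast skeletal muscle, was not well above background on any treated array and at least 11.3-fold lower. The skeletal muscle markers summed to −0.26 to −0.027 on the control arrays and −1.47 to −1.22 at 24 hr, and 7 of the 11 were not well above background in any control.

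Genes of cholesterol and fatty acid synthesis fell in 18 of 33 cases (54.5%, where 13.3% of all genes fell) and rose in none at 24 hr, at a median of −0.83. At 4 hr 15 had been higher and 1 lower, at a median of 0.73, where 15.6% of all genes were higher. In the direct test 27 of 33 were lower at 24 hr than at 4 hr, where 17.3% of all genes were (limma). Hmgcs1, which makes the precursor of mevalonate, gave 4.50, 4.52 and 4.38 in controls, 6.61, 6.60 and 6.59 at 4 hr and 2.80, 2.84 and 2.94 at 24 hr. Idi1, which isomerizes the isoprenoid building block, gave 3.43, 3.41 and 3.16, 5.54, 5.50 and 5.53 and 1.99, 1.78 and 1.65 in the same order. For both, the 4 hr arrays lay above and the 24 hr arrays below every control, and at 24 hr they were 3.04-fold and 2.88-fold lower than control (limma, adjusted p = 1.03e-10 and 6.7e-08). Insig1, which retains the sterol sensor, fell 2.36-fold, and the factor Srebf2, which controls these genes, 2.43-fold, although its other 3 probes differed by −0.78 to −0.10. In the small list for fat storage, 5 of 13 fell (38.5%) and none rose, among them Fabp4 (2.94-fold) and lipoprotein lipase (Lpl, 5.51-fold). After normexp background correction 1 of the 13 fell. The adipocyte markers summed to 5.48 to 5.66 on the control arrays and 4.04 to 4.11 at 24 hr, sums that Fabp4 dominated (means of 5.53 and 3.98), and 1 of the 4 adipocyte markers tested fell.

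Enzymes of foreign-compound and steroid metabolism fell in 11 of 28 cases (39.3%) and rose in 3 (10.7%), at a median of −0.69. Over all genes 13.3% fell and 8.75% rose. Cyp7b1, an oxysterol hydroxylase, gave 2.93, 2.93 and 2.77 in controls and −0.28, −0.27 and −0.18 at 24 hr and fell 8.69-fold. The carbonyl reductase gene Cbr2 gave 5.94, 5.98 and 6.05 in controls and 2.50, 2.59 and 2.68 at 24 hr and fell 10.6-fold (limma, adjusted p = 2.55e-12 and 3.36e-13). Akr1c18, a hydroxysteroid dehydrogenase, rose 5.46-fold, from −1.56, −1.59 and −1.66 to 0.72, 0.92 and 0.90 (adjusted p = 3.97e-12 in limma).

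Apoptosis regulators were lower in 11 of 28 cases (39.3%) and higher in 1 (3.57%), where 13.3% and 8.75% of all genes were. Bmf, which activates the mitochondrial pathway, gave 0.04, 0.01 and −0.05 in controls, −4.15, −4.61 and −4.37 at 4 hr and −2.73, −2.83 and −2.88 at 24 hr, and was 7.04-fold lower than control at 24 hr (limma, adjusted p = 3.94e-10), though its other probe differed by −0.61 only. Casp1, the inflammatory caspase, fell 5.71-fold and the mitochondrial protein gene Diablo rose 1.52-fold. The call of Diablo was lost with slide as a random block and without control replicate 2 (0.58 to 0.64 over the arrays left out). For Bcl2l11 (Bim), the representative probe fell 1.55-fold while another differed by 0.69, so its direction rests on the probe.

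Several lists stayed near the shares over all genes or below them. In oxidative phosphorylation, 2 of 45 genes rose and 2 fell, at a median of 0.059 (0.035 without control replicate 3), and leaving out single arrays took most of these counts to 1. Among interferon and antigen presentation genes, 1 of 26 rose and 2 fell, with 1 falling when any array but control replicate 2 was left out and none with median scaling. Further, none of 36 chromatin modifiers rose and 3 fell, and none of 17 circadian clock genes rose and 2 fell. The chromatin genes that fell were Kat2b (2.39-fold), Sirt5 (2.32-fold) and Hdac5 (1.65-fold), and the clock genes were Bhlhe40 (2.13-fold) and Rora (2.03-fold), whose calls were lost with median scaling. Among 33 autophagy and lysosome genes none rose and 5 fell (15.2%), with cathepsin B (Ctsb) 2.06-fold lower, and none fell with median scaling. Falls took a larger share than over all genes (13.3%) in the glycolysis and prostaglandin lists. Glycolysis and hypoxia-linked genes had 1 of 27 higher, Pgk1 (1.6-fold), and 6 lower (22.2%), with the pyruvate dehydrogenase kinase Pdk1 falling 4.84-fold and carbonic anhydrase 9 (Car9) 3.13-fold. These glycolysis counts were 4 higher and 6 lower with quantile normalization and 3 higher and 5 lower with median scaling. After normexp background correction 0 were higher and 2 lower. Of 13 prostaglandin genes 2 rose (15.4%) and 4 fell (30.8%), the prostacyclin receptor gene Ptgir by 16.6-fold, and 1 rose and 2 fell with median scaling. Leaving out any 1 array other than control replicate 3 also left 1 rise, and after normexp background correction 0 rose and 2 fell.

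Some of the largest changes were in genes that few or no lists covered. Rises included Pramel37, not well above background in controls and at least 7.29-fold higher, and the lymphoid signaling genes Blnk and Ptpn22. Blnk gave −4.20, −4.12 and −4.36 in controls and −0.40, −0.38 and −0.21 at 24 hr. Ptpn22 gave −3.63, −3.67 and −4.09 in controls and 0.12, 0.08 and 0.01 at 24 hr. Neither gene's groups overlapped, with rises of 14.9-fold and 14.6-fold (limma, adjusted p = 6.08e-12 and 1.12e-11). Prl2c3 and Prl2c5, proliferin genes of the prolactin family whose copies are alike in sequence, rose 10.6-fold and 10.2-fold. Their relative Prl3d2, not well above background in controls, was at least 2.3-fold higher. Ces2e, a carboxylesterase gene, gave −4.69, −4.58 and −4.71 in controls and −1.24, −1.20 and −1.12 at 24 hr, a 11.1-fold rise (limma, adjusted p = 6.53e-07) whose call was lost when any 1 of the 6 arrays was left out. Afp, the fetal serum protein gene, the potassium channel gene Kcnj14 and Tes, which encodes the adhesion protein testin, were not well above background in controls and at least 2.42-fold, 4.89-fold and 2.74-fold higher. Leaving out any of 5 of the 6 arrays cost Prl3d2 and Kcnj14 their calls, and Prl3d2, Afp, Kcnj14 and Tes took the other sign after normexp background correction. Between 4 hr and 24 hr, Blnk, Ptpn22 and Prl2c5 differed by 0.27, 0.05 and 0.00. Among the falls, Vit, of the matrix list, was not well above background on any treated array and at least 26.8-fold lower. Dio3, which inactivates thyroid hormone, gave 3.09, 3.07 and 2.93 in controls and −2.06, −1.97 and −1.91 at 24 hr, a 32.1-fold fall. Ggt5, which cleaves glutathione conjugates and leukotrienes, gave 0.41, 0.34 and 0.49 in controls and −4.73, −4.83 and −4.72 at 24 hr, a 36-fold fall (adjusted p = 2.31e-13 and 6.73e-15 in limma). The organic anion carrier Slco2b1 and Fgl2, a fibrinogen-like protein gene, fell at least 28.3-fold and 39.3-fold, each with 1 of 3 treated arrays well above background. The same held for Vat1l, at least 18.2-fold lower, and Lgi2 had 2 such arrays and fell at least 28.5-fold. The synaptotagmin gene Syt13 and Tnfsf11, which encodes the cytokine RANKL, were not well above background on any treated array and at least 15.4-fold and 18.6-fold lower.

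**Figure D4:**
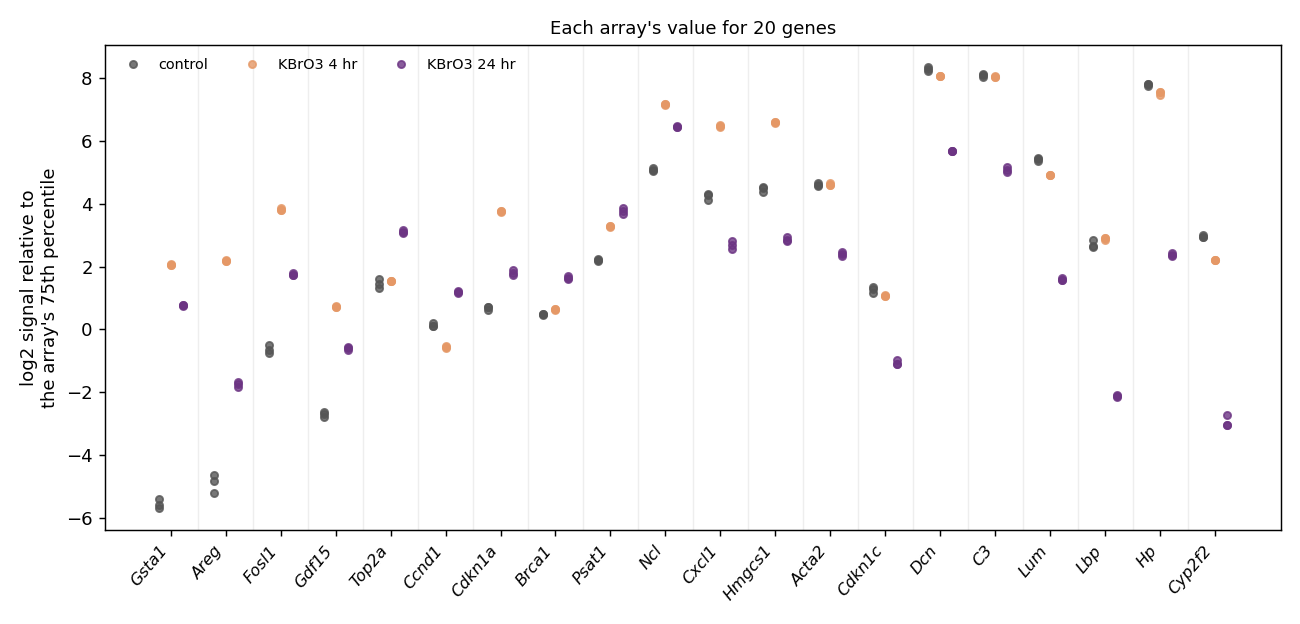
Value of each array (points, log2 signal relative to the array's 75th percentile, y axis) for 20 genes (x axis) in control, KBrO3 4 hr and KBrO3 24 hr cells, 3 arrays each. The 24 hr points lie apart from the control points for all 20 genes, above them for the first 10, from Gsta1 to Ncl, and below them for the last 10, from Cxcl1 to Cyp2f2.

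Levels at 24 hr were also compared directly with those of cells given KBrO3 alone and sampled at 4 hr. Of the 1154 genes that rose, 299 were higher than at 4 hr, 247 were lower and 608 passed the threshold neither way (limma). Of the 1749 that fell, 850 were lower than at 4 hr, 160 were higher and 739 passed neither way. There were 61 genes above control at 24 hr that had been below it at 4 hr, among them Ccnb1, Aurka, Ccnd1 and Chek2, and 79 with the reverse order, among them Cxcl1, Il6, Hmgcs1 and Idi1.

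With slide as a random block (estimated correlation of 0.635 between arrays of a slide), 700 genes rose and 1294 fell, and the counts were 11 of 35 for mitosis, 6 of 40 for replication, 13 of 30 for ribosome biogenesis, 4 of 20 for the tRNA synthetases, 5 of 26 for ATF4 targets and 4 of 21 for homologous recombination among the rises, and 16 of 22 acute-phase, 18 of 31 matrix, 14 of 28 chemokine, 17 of 33 lipid synthesis and 8 of 12 insulin-like growth factor genes among the falls. Fitted on the 6 arrays alone, with less information on the spread, 99 genes rose and 476 fell, among them 1 of 35 mitotic genes and 11 of 22 acute-phase genes. The falls also held 8 of 31 matrix, 6 of 28 chemokine, 4 of 33 lipid synthesis and 4 of 12 insulin-like growth factor genes. In that fit 1 gene each rose among ATF4 targets, replication and homologous recombination, 2 p53 pathway genes, 2 heat shock genes and 5 of ribosome biogenesis rose, and none rose among tRNA synthetases, proteasome subunits, NRF2 targets and checkpoint genes. With 1 probe per gene, none of the 2903 genes was called in the opposite direction under the other scalings, filters, fits and thresholds tried, whereas 12 of them had another tested probe called in the opposite direction.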

How the data were processed

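RNA of each sample was hybridised to a 1-color Agilent mouse array with 41174 probes. Per the file headers, the authors quantified the scans with Feature Extraction 9.5.3.1 (the submitters' processing notes list 12.0), and the deposited intensity used here is its processed signal, which is background-subtracted. The series table holds the same intensities, equal on all 675270 values compared. Here log2 intensity minus each array's 75th percentile was averaged over spots of a probe, leaving out outlier spots. Probes were kept when well above background on all arrays of either group (25449 probes). Names came from RefSeq tables (32734 probes matched, 18440 protein-coding genes), and the probe with the highest mean signal stood for its gene. limma 3.58.1 in R 4.3.3 fitted all 15 arrays of the set by group, with Bonferroni adjustment over probes for calls (0.01, and 1.5-fold) and Benjamini-Hochberg adjusted p printed. "At least" folds set each array of a dim group at the higher of its own value and its dimmest signal well above background. The arrays' number limits the precision. The fit was also run on simulated arrays with independent noise and no slide effect, so that run does not bear on the part of the slides. The 9 arrays of another set were not used.

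The genes named are the 15 largest fitted rises and falls, a selection of the key members and largest changes of 40 lists, and Xrcc6. The members, lists and this rule were chosen with earlier results of these data known, so they are no independent support for one another. Alternatives were scaling by the median or by quantiles, normexp background correction (offset 50), the series table, filters on dim probes, outlier spots kept, slide as a random block, replicate number as a block, error weights, an unmoderated model, a Benjamini-Hochberg threshold of 0.05, any probe of a gene and each array left out. Promoter windows and sequences are RefSeq's, on GRCm38.p6; probe positions are mm7, from the headers.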

Additional observations from a re-analysis of the deposited data

Results flagged for a closer look

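For 17 genes named above, the differences from the shared controls passed the test in opposite directions at 4 hr and 24 hr, and the direct 24 hr minus 4 hr difference passed it too (limma, log2 scale). Higher at 24 hr after being lower at 4 hr were the cell cycle and checkpoint genes Aurka (1.46), Ccnb1 (1.76), Ccnd1 (1.74) and Chek2 (2.01). The reverse order held for the cytokines Ccl2 (−2.24), Ccl7 (−2.66), Csf2 (−4.03 as fitted, but at least 7.98-fold lower than at 4 hr, since no 24 hr array was well above background), Cxcl1 (−3.79), Il33 (−3.10) and Il6 (−3.86). It also held for the sterol genes Hmgcs1 (−3.74), Idi1 (−3.71) and Insig1 (−3.55), for the transcription factor genes Bhlhe40 (−2.13), Egr2 (−2.60) and Xbp1 (−1.96) and for Cnn1 (−2.87). No control labeled 24 hr is in the set, and 1 control shared a slide with the 4 hr arrays while none shared a slide with the 24 hr arrays.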

How the results depend on the processing

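Higher and lower calls against control (1154 and 1749) stayed within 1.5 times under the alternatives tried, except for the 6 arrays alone (99 and 476), median scaling (1074 lower), normexp (236 and 496), slide as a random block (700 higher) and the Benjamini-Hochberg threshold (2924 lower). The direct 24 hr against 4 hr counts (1997 and 2289) moved with median scaling (1455 lower), normexp (559 and 697), the slide block (1317 higher) and the Benjamini-Hochberg threshold (3758 lower). Leaving out 1 array gave 886 to 998 higher and 1422 to 1543 lower calls against control, and 1623 to 1887 and 1900 to 2206 against 4 hr. Deviations of same-numbered control and KBrO3 24 hr arrays from their group means correlated at −0.198, 0.0894 and −0.124. Arrays of a slide were alike (estimated correlation of 0.635) and same-numbered arrays lay on different slides. These values therefore cannot decide whether replicate numbers pair arrays. With replicate number as a block 884 genes rose and 1434 fell. Log2 differences took the other sign for Hspa5 and Ogg1 with quantile normalization (0.15 and 0.014), for Hmox1, Hspa5 and Ogg1 with median scaling (0.022, 0.055 and 0.14), for Egr1 with the slide block (−0.0077) and for Ogg1 when an array was left out (−0.069 to 0.029). With normexp this held for Afp (−0.95), Kcnj14 (−0.46), Prl3d2 (−0.93), Tes (−0.85), Chek2 (−0.036), Gclm (−0.19), Hmox1 (0.24), Hspa5 (0.28), Il18r1 (−1.09), Mmp15 (−1.25), Ogg1 (0.18) and Slc7a11 (−0.34). Of 188 genes followed through the settings, 80 lost their call but kept their sign with normexp, and 92 lost their call in the fit on the 6 arrays alone. With normexp the calls also dropped from 9 to 0 for proteasome subunits and for tRNA synthetases, from 18 to 6 for mitosis, 19 to 9 for ribosome biogenesis, 10 to 3 for DNA replication, 7 to 2 for homologous recombination, 8 to 3 for p53 targets, 8 to 2 for ATF4 targets and for immediate early genes, 4 to 1 for NRF2 targets, 5 to 2 for heat shock genes and 3 to 0 for checkpoint and Fanconi genes among the rises, and from 15 to 3 for chemokines, 18 to 3 for lipid synthesis, 21 to 6 for matrix, 12 to 3 for matrix proteases, 14 to 6 for Wnt and guidance genes, 11 to 3 for apoptosis regulators, 9 to 3 for TGF-beta and BMP genes, 11 to 6 for foreign-compound enzymes, 5 to 1 for regulators of the first gap phase, 5 to 0 for autophagy, 4 to 0 for superoxide and peroxide enzymes and 9 to 4 for the insulin-like growth factor axis and for the glutathione S-transferases among the falls. With median scaling the falls dropped from 14 to 8 for Wnt and guidance genes, from 11 to 6 for apoptosis regulators, from 5 to 3 for regulators of the first gap phase and from 4 to 2 for superoxide and peroxide enzymes, and with quantile normalization 15 proteasome subunits and 10 heat shock genes rose. The causes were not tested. Signal near background limits dim genes, for which folds are bounds.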

Other observations

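Gene families that share a name stem were picked after their values were seen, and their counts are descriptions (limma, at the thresholds above; 8.75% of all genes rose and 13.3% fell). Of 9 subunits of the T-complex chaperonin (Cct), which folds actin and tubulin, 7 rose and none fell, at a median log2 difference of 0.90 and with Cct3 highest at 1.18. Nucleoporins, which build the nuclear pore, had 7 of 19 higher and none lower (median 0.63), and importins and exportins, which carry cargo through it, 5 of 19 higher and none lower (0.35). Of 51 RNA helicases 15 rose and 3 fell (0.40), with Ddx39a at 1.58. Mitochondrial ribosomal proteins had 15 of 78 higher and none lower (0.28); the cytosolic ribosomal protein gene that fell was Rpl27a (−0.76). Among 21 centromere proteins 5 rose and none fell (0.39, against −0.53 at 4 hr with the same controls), and among 31 histone genes 3 rose and none fell (0.36, against −0.44 at 4 hr).

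Of 29 serpins, inhibitors of proteases, 8 fell and 1 rose (median −0.88), and Serpina3n fell by 4.47 on the log2 scale. Of 13 cathepsins, lysosomal proteases, 4 fell and none rose (−0.70). Septins, which form filaments at the cell cortex, had 3 of 9 lower and none higher, with Septin4 at −3.20. Of 24 semaphorins and plexins 8 fell and 1 rose, Sema3e (1.53), and of 16 ephrins and their receptors 6 fell and 3 rose, with Efnb2 at 1.25 and Epha1 at −2.06. Of 5 tested genes of the prolactin family, whose copies are alike in sequence, 4 rose. Solute carriers (20 of 242 higher, 32 lower) and zinc finger proteins (11 of 291 higher, 11 lower) lay near or below the shares over all genes.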
